A study of Mus musculus with 15 samples.

Results

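The genes that copy DNA in S phase form the subject here: 49 genes of the mouse that license replication origins, unwind the DNA, synthesise it, supply its building blocks and assemble the new chromatin. They were chosen by symbol from the 21761 genes of the deposited table, by a rule that reads no measured value, and all 49 were found. The list was drawn up with earlier results of these data known. They comprise the 6 subunits of the origin recognition complex, 3 licensing factors, the 6 subunits of the MCM helicase, 6 genes of helicase activation, 6 of the sliding clamp and its loader, 9 of the polymerases and primase, 3 of RPA, 2 of flap removal and ligation, 5 of nucleotide supply and 3 of chromatin assembly and histone mRNA.

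All cells came from female C57BL/6J mice given as wild type in the labels. Each of 5 groups was measured by mRNA sequencing with 3 libraries, 15 in all. CD43- splenic B cells were kept for 3 days with 250 nM GSK-J4 or its vehicle DMSO under stimulation by IL-2, IL-5 and LPS, and separated into CD138+ cells, called plasmablasts in the labels, and magnetically enriched GL7+ cells, called activated B cells. The groups were CD138+ cells with GSK-J4, CD138+ cells with DMSO, GL7+ cells with GSK-J4, GL7+ cells with DMSO, and unstimulated CD43- B cells, called naive. GSK-J4 is a cell-permeable inhibitor of the histone H3 lysine demethylases Kdm6a and Kdm6b, which remove the repressive H3K27me3 mark; it also acts on related demethylases at higher doses. Replicate numbers stand for mice in the labels, except that 1 CD138+ library with GSK-J4, numbered 4 in the table, could not be tied to a mouse.

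The replication genes work in sequence. The origin recognition complex with Cdc6 and Cdt1 loads the MCM ring onto origins, Cdc45 and GINS turn the ring into an active helicase, and PCNA, loaded by replication factor C, holds the polymerases on the DNA that primase has primed and RPA has covered. Fen1 and Lig1 join the lagging strand fragments, while ribonucleotide reductase, thymidylate synthase, thymidine kinase and dUTPase set the supply of deoxynucleotides. In resting B cells most of these genes are held down by E2F and pocket protein complexes, and they are transcribed when stimulated cells pass from G1 into S phase, which they do before and during plasmablast formation.

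Because these genes share a known class of regulators, their promoters are shown for members to which the results below return. RefSeq promoter entries (GRCm38.p6, 250 bases before and 50 after the start) matched 41 of the 49 members. Gmnn, Mcm4, Gins1, Gins2, Gins4, Rfc2, Prim2 and Pole had no entry. E2F-type words were taken as TTTGGCGC, TTTGGCGG, TTTCCCGC or TTTCGCGC on either strand; a match is a description of the letters and not a shown binding site. At least 1 such word lay in the window of 19 of the 41 members (46.3%), against 2.37% of all 32851 promoters and 5.38% of the 8613 tested genes with an entry. The 250 bases before the start, 5′ to 3′, follow for 4 members, with E2F-type words in capitals: Orc1 (chr4:108579204-108579453 on the + strand), Cdc6 (chr11:98907901-98908150 on the + strand), Mcm6 (chr1:128359706-128359955 on the - strand) and Chaf1a (chr17:56040166-56040415 on the + strand).
Orc1: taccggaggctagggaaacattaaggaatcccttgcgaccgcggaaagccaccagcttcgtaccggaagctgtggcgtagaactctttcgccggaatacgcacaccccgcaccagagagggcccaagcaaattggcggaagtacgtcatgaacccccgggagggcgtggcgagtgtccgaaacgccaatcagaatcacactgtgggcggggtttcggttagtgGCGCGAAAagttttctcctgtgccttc
Cdc6: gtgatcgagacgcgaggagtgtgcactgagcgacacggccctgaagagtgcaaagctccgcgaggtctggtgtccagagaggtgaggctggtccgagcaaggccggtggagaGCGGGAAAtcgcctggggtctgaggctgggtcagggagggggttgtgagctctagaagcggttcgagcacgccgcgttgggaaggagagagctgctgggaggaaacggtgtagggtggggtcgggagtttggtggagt
Mcm6: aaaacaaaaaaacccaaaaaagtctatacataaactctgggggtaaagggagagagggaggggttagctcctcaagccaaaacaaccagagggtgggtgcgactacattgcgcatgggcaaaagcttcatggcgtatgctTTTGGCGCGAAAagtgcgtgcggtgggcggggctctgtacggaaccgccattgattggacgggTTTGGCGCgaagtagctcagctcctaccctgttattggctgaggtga
Chaf1a: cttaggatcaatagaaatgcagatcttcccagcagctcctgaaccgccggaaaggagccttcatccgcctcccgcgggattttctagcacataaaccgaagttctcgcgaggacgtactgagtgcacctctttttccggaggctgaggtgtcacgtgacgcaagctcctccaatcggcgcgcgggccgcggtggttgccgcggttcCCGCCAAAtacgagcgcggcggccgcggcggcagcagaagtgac
In Mcm6, 2 overlapping words stood 110 and 106 bases before the start and another stood 47 bases before it, whereas Orc1, Cdc6 and Chaf1a had 1 each, 27, 138 and 44 bases before the start.

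Mcm10 and Pcna are shown as members with no E2F-type word, which says only that these letters are not in the window. Their capitals mark the word CCAAT or its reverse complement ATTGG, the core bound by NF-Y: Mcm10 (chr2:5012792-5013041 on the - strand) and Pcna (chr2:132253181-132253430 on the - strand), both of GRCm38.p6 as above.
Mcm10: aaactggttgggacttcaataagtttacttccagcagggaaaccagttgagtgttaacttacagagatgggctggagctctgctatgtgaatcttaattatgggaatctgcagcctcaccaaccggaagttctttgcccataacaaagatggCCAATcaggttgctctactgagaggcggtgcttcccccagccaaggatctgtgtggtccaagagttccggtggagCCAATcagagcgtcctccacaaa
Pcna: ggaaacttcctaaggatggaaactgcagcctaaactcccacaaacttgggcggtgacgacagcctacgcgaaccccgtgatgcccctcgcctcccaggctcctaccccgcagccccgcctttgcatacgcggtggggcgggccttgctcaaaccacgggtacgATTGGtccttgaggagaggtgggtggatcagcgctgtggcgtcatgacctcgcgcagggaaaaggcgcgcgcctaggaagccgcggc
CCAAT on either strand lay in the window of 25 of the 41 members (61.0%), against 37.4% of all promoters and 43.7% of tested genes with an entry. For these words and the E2F-type words, a member or tested gene counts once if any of its entries holds the word. The share of all promoters counts each entry. CACGTG, the palindromic E-box bound by Myc and related factors, lay in 8 of 41 (19.5%), against 7.15% of all promoters and 12.2% of tested genes with an entry. TTTGAA, the core of the CHR element of mitotic genes, lay in 5 of 41 (12.2%), against 17.9% of all promoters and 14.5% of tested genes with an entry. None of the E2F-type words contains it or the other 2 words.

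**Figure D1:**
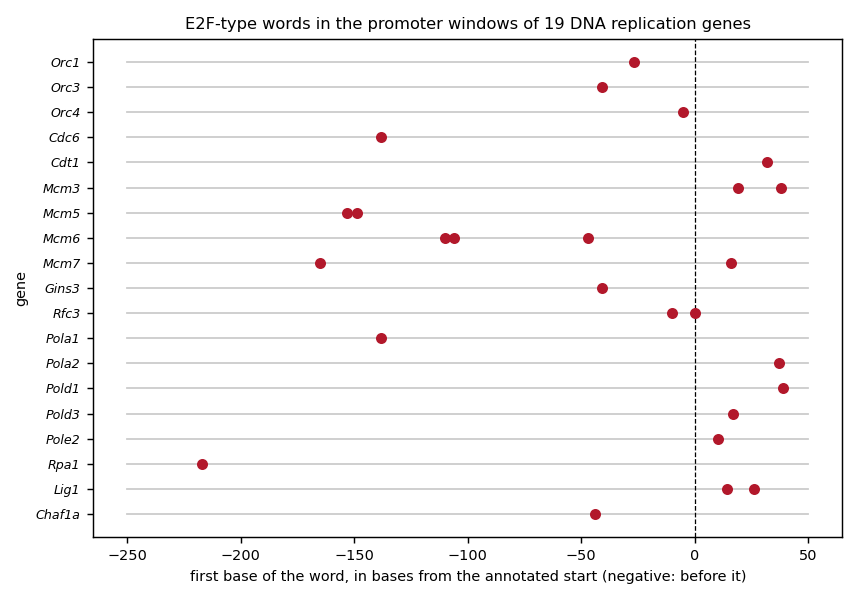
Position of each E2F-type word relative to the RefSeq start (x axis, bases) in the 19 members that held one (y axis), grouped by role. Words stood on both sides of the start, from 217 bases before it in Rpa1 to 39 bases after it in Pold1, with 3 in Mcm6.

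The plot of E2F-type words shows that they were spread over the role groups: members of origin recognition, licensing, the MCM ring, GINS, the clamp loader, the polymerases, RPA, ligation and chromatin assembly held them, and no member of nucleotide supply did. Mcm3, Mcm5, Mcm7, Rfc3 and Lig1 held 2 words each, and those of Mcm5 overlapped. In Lig1 both words stood after the start, at 14 and 26 bases.

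The values are RPKM, reads scaled to the length of the exons and to all assigned reads, so levels can be set side by side between genes. Whole reads recovered from them ranged from 6241271 to 12212070 in the 12 cultured libraries, where no member had fewer than 136 reads. Depth differed by treatment in CD138+ cells, with 6241271 to 7712203 reads with GSK-J4 and 9677386 to 11635232 with DMSO. In GL7+ cells the ranges overlapped, at 9174352 to 12212070 and 9805738 to 11519229 reads. Naive replicate 2 stood apart with 1317999 reads, and its members had 2 to 220 reads (median 33), the fewest in Gins2. Odd numbers of reads made up 59.8% of its values of 1 to 20 reads, against 58.3% to 61.4% in the other libraries; at 2 times that depth every one of these values would be even. The CD138 gene Sdc1 lay between 34.5 and 44.8 RPKM in CD138+ cells with GSK-J4 and between 30.5 and 35.3 RPKM in CD138+ cells with DMSO, against 2.33 to 3.30 and 1.26 to 1.54 RPKM in GL7+ cells with GSK-J4 and with DMSO. Kdm6a did not change past the threshold with GSK-J4 in either fraction (29.8 ± 2.45 with GSK-J4 and 27.7 ± 1.47 RPKM with DMSO in CD138+ cells, adjusted p = 0.46; 22.6 ± 1.98 and 22.5 ± 1.51 RPKM in GL7+ cells, adjusted p = 0.99), nor did Kdm6b (3.69 ± 0.14 and 4.12 ± 0.32 RPKM, adjusted p = 0.51; 5.95 ± 0.34 and 7.54 ± 1.68 RPKM, adjusted p = 0.11; SD, n = 3). Since GSK-J4 acts on the proteins, these levels do not check the treatment.

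The first question was what GSK-J4 did to the replication genes in CD138+ cells. Of the 49 members, 11 rose and none fell (adjusted p below 0.05, limma on log2(RPKM + 1) with Benjamini-Hochberg adjustment over all 10866 genes tested), against 4.61% of all genes tested that rose and 8.61% that fell. At an unadjusted p below 0.05, 17 members were higher and 0 lower. The share of all genes at unadjusted p is not given here or below, so such counts have no background beside them. Voom on recovered reads called 14 members higher and 0 lower. Of all 10866 genes tested it called 799 higher and 1206 lower, against 501 and 936 in the main fit. The 11 were Cdc6, Mcm4, Mcm6, Mcm10, Cdc45, Pcna, Rfc5, Prim1, Lig1, Rrm2 and Chaf1a, which stand at every step from licensing to chromatin assembly except origin recognition and RPA. Their levels were 11.9% to 23.4% higher with GSK-J4. The median log2 difference of the 49 members was 0.12, against -0.03 over all genes tested, and 39 members lay above 0. In bulk RNA, a larger share of cells in S phase and more of each mRNA per cell cannot be told apart.

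The CD138+ libraries with GSK-J4 and with DMSO did not overlap for 23 members, 21 of them higher and 2 lower with GSK-J4, against 14.4% and 22.4% of all genes tested. In mouse 1 and mouse 2, the mice with a library in both groups, 32 of the 49 members were higher with GSK-J4 in both and 5 were lower in both. The share of all genes with the same direction in both mice was not computed, so these counts have no background beside them. With the mouse of the labels as a block 4 members rose, Cdc6, Pcna, Prim1 and Rrm2, and the adjusted p of the other 7 lay between 0.068 (Mcm10) and 0.18 (Chaf1a). Of all 10866 genes tested the block called 313 higher, against 501 in the main fit. Over all settings the adjusted p of Mcm10 ranged from 0.0016 to 0.17 and that of Chaf1a from 0.0087 to 0.34. The calls in CD138+ cells were unequally firm: over 26 other settings of the analysis, those of Cdc6, Pcna and Rrm2 held in 25, that of Mcm6 in 22, those of Mcm10 and Cdc45 in 20 and that of Mcm4 in 19, while those of Prim1, Lig1, Chaf1a and Rfc5 held in 13, 10, 9 and 7. The count was 3, 4 and 7 without CD138+ DMSO replicates 1, 2 and 3, 6, 5 and 4 without CD138+ GSK-J4 replicates 1, 2 and 4, 7 without GL7+ GSK-J4 replicate 1 or replicate 2, 7 after TMM scaling, and 0 when every library was thinned to the depth of the shallowest naive one. In the same order, the genes called higher among all tested were 264, 273 and 270, then 313, 306 and 332, then 430 and 469. They numbered 429 after TMM scaling and 68 after that thinning. Over all genes, quantile normalization gave 613 higher and 700 lower in this comparison, against 501 higher and 936 lower without it, and 8 members rose.

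In GL7+ cells 26 of the 49 members rose with GSK-J4 and none fell, against 5.81% of all genes tested that rose and 7.71% that fell. At an unadjusted p below 0.05, 37 members were higher and 0 lower, again without the share of all genes. Voom on recovered reads called 38 members higher and 0 lower. Of all 10866 genes tested it called 1202 higher and 1412 lower, against 631 and 838 in the main fit. All 11 members that rose in CD138+ cells were among them. The other 15 were Orc1, Orc2, Orc6, Mcm3, Mcm7, Gins2, Gins3, Pola1, Pole2, Rpa2, Rpa3, Fen1, Rrm1, Dut and Slbp. Over the 26, levels were 13.1% (Lig1) to 41.5% (Cdc6) higher with GSK-J4, and the median log2 difference of all 49 members was 0.25, against -0.01 over all genes tested.

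Only Orc5 had a log2 difference below 0 in GL7+ cells (-0.01, adjusted p = 0.93). Libraries with GSK-J4 and with DMSO did not overlap for 44 of the 49 members, all higher with GSK-J4, against 19.1% of all genes tested. In each of the 3 mice 46 members were higher with GSK-J4, a count for which the share of all genes was not computed. The number of members that rose was 17 without GL7+ GSK-J4 replicate 3 and 3 when every library was thinned to the depth of the shallowest naive one. Among all genes tested 317 and 87 were called higher in these settings, against 631 in the main fit. The calls of Mcm6, Mcm7 and Rrm2 held in all 26 other settings, whereas that of Fen1 held in 12, was lost when the mouse entered the fit (adjusted p = 0.058, and 8.9e-04 to 0.28 over the 26 settings), and those of Rpa2 and Slbp in 17.

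**Figure D2:**
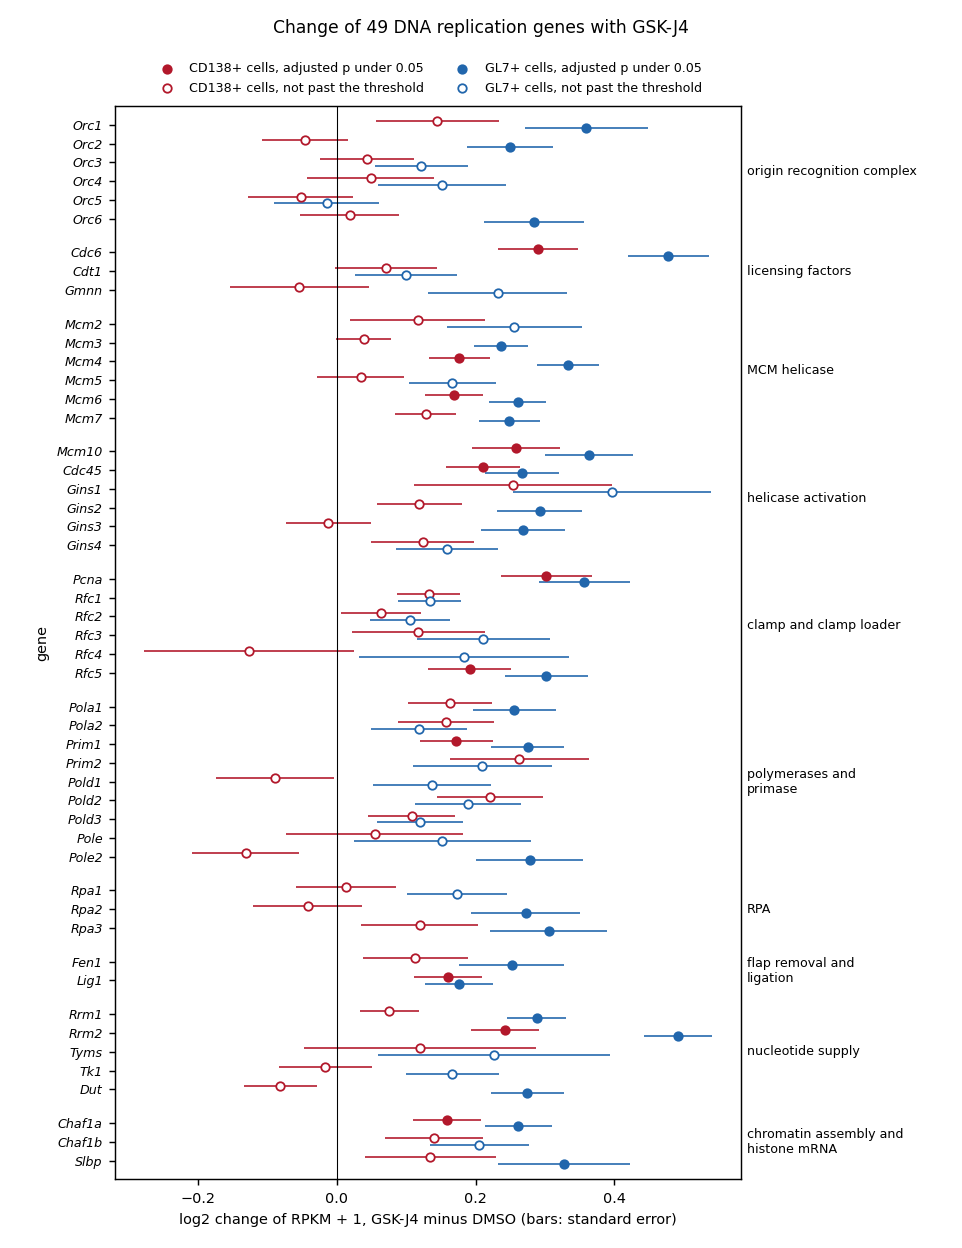
Log2 difference, GSK-J4 over DMSO, for the 49 members by role (CD138+ red, GL7+ blue), on the log2(RPKM + 1) scale, where points are estimates, bars are standard errors and filled points passed the threshold. Of the filled points, 11 are red and 26 are blue, and all lie above 0.

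In the plot of differences by gene, the blue points lie to the right of the red ones for 46 of the 49 members. Both fractions were measured in separate libraries, and the test of the difference between them is given after the role groups.

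Origin recognition showed no called change in CD138+ cells, where its 6 subunits had a median log2 difference of 0.03 and none had an unadjusted p below 0.05, while 3 of the 6 rose in GL7+ cells (median 0.20). Orc1 (gene ID 18392), the largest subunit and a known E2F target, had 14.7, 14.0 and 13.1 RPKM in CD138+ cells with GSK-J4, against 13.0, 11.6 and 12.9 RPKM in CD138+ cells with DMSO. All 3 CD138+ libraries with GSK-J4 lay above all 3 with DMSO, by a narrow margin, and the log2 difference of 0.15 ± 0.09 (adjusted p = 0.32) did not pass the threshold. In GL7+ cells Orc1 had 19.1, 18.4 and 18.7 RPKM with GSK-J4, against 14.3, 13.8 and 15.1 RPKM with DMSO. These groups were well apart, and the log2 difference was 0.36 ± 0.09 (adjusted p = 0.016), a call held in 21 of the 26 other settings. Orc2 and Orc6, subunits of the core complex, also rose in GL7+ cells, by 0.25 ± 0.06 and 0.28 ± 0.07 on the log2 scale (adjusted p = 0.017 and 0.018), against -0.05 ± 0.06 and 0.02 ± 0.07 in CD138+ cells (adjusted p = 0.70 and 0.91). Orc3, Orc4 and Orc5 passed the threshold in neither fraction.

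Of the 3 licensing factors, Cdc6 rose in both fractions and the other two in neither. Cdc6 (gene ID 23834), the ATPase that helps the origin complex load the MCM ring, had 28.0, 28.0 and 28.3 RPKM in CD138+ cells with GSK-J4, against 22.5, 22.8 and 23.1 RPKM in CD138+ cells with DMSO. The 3 libraries with GSK-J4 differed among themselves by far less than they differed from DMSO, and the log2 difference was 0.29 ± 0.06 (adjusted p = 0.0048). In GL7+ cells Cdc6 had 24.6, 26.8 and 27.2 RPKM with GSK-J4, against 18.7, 18.2 and 18.8 RPKM with DMSO, again with no overlap. Its log2 difference there was 0.48 ± 0.06 (adjusted p = 2.8e-04), on this scale the second highest of the 49 members after Rrm2. Cdt1, the partner of Cdc6 in MCM loading, whose protein is destroyed in S phase, was at 25.2 ± 0.614 RPKM with GSK-J4 and 24.0 ± 1.51 with DMSO in CD138+ cells (adjusted p = 0.59), and 19.8 ± 2.33 and 18.3 ± 0.490 RPKM in GL7+ cells (SD, n = 3; adjusted p = 0.42). Gmnn, which encodes geminin, the inhibitor of Cdt1, did not pass the threshold either (adjusted p = 0.79 in CD138+ and 0.15 in GL7+ cells).

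The MCM ring, the core of the replicative helicase, summed to 697 ± 16.3 RPKM over its 6 subunits in CD138+ cells with GSK-J4 and 645 ± 8.04 with DMSO, and to 889.6 ± 10.4 in GL7+ cells with GSK-J4 and 747 ± 7.87 with DMSO (SD, n = 3). Mcm4 and Mcm6 rose in CD138+ cells, and Mcm3, Mcm4, Mcm6 and Mcm7 rose in GL7+ cells. Mcm4 (gene ID 17217) had 101, 102 and 105 RPKM in CD138+ cells with GSK-J4, against 90.9, 89.5 and 91.9 RPKM in CD138+ cells with DMSO. The groups did not overlap, and the log2 difference was 0.18 ± 0.04 (adjusted p = 0.018). In GL7+ cells Mcm4 had 146, 150.4 and 154 RPKM with GSK-J4, against 121, 117 and 119 RPKM with DMSO. Every GSK-J4 library of Mcm4 again lay above every DMSO library, and the log2 difference was 0.33 ± 0.04 (adjusted p = 4.9e-04).

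Mcm6 (gene ID 17219), whose promoter held the 3 E2F-type words shown above, had 131, 128 and 137 RPKM in CD138+ cells with GSK-J4, against 114, 119.5 and 118 RPKM in CD138+ cells with DMSO, and its log2 difference was 0.17 ± 0.04 (adjusted p = 0.015). In GL7+ cells it had 131, 134 and 130.5 RPKM with GSK-J4, against 110.2, 112 and 107 RPKM with DMSO, and its log2 difference was 0.26 ± 0.04 (adjusted p = 0.0013). Neither fraction showed overlap for Mcm6. Mcm3 and Mcm7 rose by 0.24 ± 0.04 and 0.25 ± 0.04 in GL7+ cells (adjusted p = 0.0017 and 0.0027). Mcm2 and Mcm5 passed the threshold in neither fraction, with log2 differences of 0.26 ± 0.10 and 0.17 ± 0.06 in GL7+ cells. Mcm2 had 96.6, 93.6 and 98.6 RPKM there with GSK-J4, against 79.1, 82.1 and 80.2 RPKM with DMSO. Its error is estimated over all 5 groups, and in naive libraries Mcm2 had 17.5, 13.3 and 19.5 RPKM. Of the 6 subunits, the highest was 1.60 times the lowest in CD138+ cells with GSK-J4 and 2.00 times in GL7+ cells with GSK-J4.

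Among the 6 genes of helicase activation, Mcm10 and Cdc45 rose in both fractions, and Gins2 and Gins3 rose in GL7+ cells. Mcm10 (gene ID 70024), which is needed to activate the loaded helicase, had 16.9, 17.2 and 16.8 RPKM in CD138+ cells with GSK-J4, against 14.0, 13.9 and 14.1 RPKM in CD138+ cells with DMSO. In GL7+ cells it had 19.6, 21.2 and 21.1 RPKM with GSK-J4, against 15.4, 15.8 and 16.1 RPKM with DMSO. Mcm10 did not overlap in either fraction, and its log2 differences were 0.26 ± 0.06 (adjusted p = 0.015) and 0.36 ± 0.06 (adjusted p = 0.0023). Cdc45, the helicase cofactor that joins MCM and GINS, was at 68.0 ± 3.09 RPKM with GSK-J4 and 58.6 ± 1.52 with DMSO in CD138+ cells (adjusted p = 0.019), and at 58.4 ± 3.14 and 48.4 ± 1.88 RPKM in GL7+ cells (SD, n = 3; adjusted p = 0.0055). Of the 4 GINS subunits, Gins2 and Gins3 rose by 0.29 ± 0.06 and 0.27 ± 0.06 in GL7+ cells. Gins1 had a larger estimate, 0.40 ± 0.14, with a wider error, and did not pass (adjusted p = 0.082). In GL7+ cells Gins1 had 22.8, 22.7 and 23.9 RPKM with GSK-J4, against 17.5, 16.6 and 18.0 RPKM with DMSO. Its error is estimated over all 5 groups, and in naive libraries Gins1 had 1.43, 2.97 and 2.92 RPKM.

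The sliding clamp was the most abundant member mRNA in every group. Pcna (gene ID 18538), the ring that tethers polymerases to DNA, had 408, 395 and 378 RPKM in CD138+ cells with GSK-J4, against 324, 305 and 327 RPKM in CD138+ cells with DMSO. No library with GSK-J4 fell into the range of the DMSO libraries, and the log2 difference was 0.30 ± 0.07 (adjusted p = 0.0079), the highest among the 49 members in CD138+ cells. In GL7+ cells Pcna had 442, 442 and 484 RPKM with GSK-J4, against 348, 369 and 350.3 RPKM with DMSO, a log2 difference of 0.36 ± 0.07 (adjusted p = 0.0033) with no overlap. Of the 5 subunits of replication factor C, the clamp loader, Rfc5 rose in both fractions, by 0.19 ± 0.06 (adjusted p = 0.049) in CD138+ and 0.30 ± 0.06 (adjusted p = 0.0050) in GL7+ cells, and Rfc1, Rfc2, Rfc3 and Rfc4 in neither. Rfc4 had 46.9, 49.6 and 43.2 RPKM in CD138+ cells with GSK-J4, against 49.9, 52.1 and 50.5 RPKM in CD138+ cells with DMSO, so every CD138+ library with GSK-J4 lay below every one with DMSO. In GL7+ cells Rfc4 had 48.3, 52.3 and 54.8 RPKM with GSK-J4, against 45.8, 47.0 and 43.5 RPKM with DMSO, the opposite order. Neither difference of Rfc4 passed the threshold (-0.13 ± 0.15 and 0.18 ± 0.15; adjusted p = 0.65 and 0.47). The error of Rfc4 also covers the naive libraries, where it had 6.84, 3.24 and 5.53 RPKM.

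Of the 9 polymerase and primase genes, Prim1 rose in both fractions, and Pola1 and Pole2 rose in GL7+ cells. Prim1 (gene ID 19075), the catalytic subunit of primase, had 53.2, 52.5 and 50.1 RPKM in CD138+ cells with GSK-J4, against 46.1, 44.2 and 47.6 RPKM in CD138+ cells with DMSO. In GL7+ cells it had 56.4, 57.8 and 61.8 RPKM with GSK-J4, against 45.9, 51.2 and 47.9 RPKM with DMSO. The groups were apart in both fractions, and the log2 differences were 0.17 ± 0.05 (adjusted p = 0.044) and 0.27 ± 0.05 (adjusted p = 0.0040). Pola1, the catalytic subunit of the polymerase that extends the primer, and Pole2, the second subunit of the leading strand polymerase, rose by 0.26 ± 0.06 and 0.28 ± 0.08 in GL7+ cells (adjusted p = 0.013 and 0.029). In CD138+ cells Pole2 had a log2 difference of -0.13 ± 0.08 (adjusted p = 0.30).

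Pold1, the catalytic subunit of the lagging strand polymerase, had 22.8, 24.2 and 24.1 RPKM in CD138+ cells with GSK-J4, against 25.8, 24.9 and 25.1 RPKM in CD138+ cells with DMSO, all 3 libraries with GSK-J4 below all 3 with DMSO. In GL7+ cells Pold1 had 39.4, 38.7 and 39.4 RPKM with GSK-J4, against 35.3, 36.5 and 34.8 RPKM with DMSO, all 3 above. Its log2 differences, -0.09 ± 0.08 (adjusted p = 0.55) and 0.14 ± 0.08 (adjusted p = 0.32), did not pass the threshold. The error of Pold1 is estimated over all 5 groups, and in naive libraries it had 41.2, 33.2 and 46.7 RPKM. Pola2, Prim2, Pold2, Pold3 and Pole passed it in neither fraction.

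RPA, the trimer that covers single-stranded DNA, had no called subunit in CD138+ cells, where none had an unadjusted p below 0.05, whereas Rpa2 and Rpa3 rose in GL7+ cells. Rpa3 (gene ID 68240), the smallest subunit, had 82.4, 74.4 and 65.0 RPKM in CD138+ cells with GSK-J4, against 68.2, 64.4 and 70.5 RPKM in CD138+ cells with DMSO. These groups overlapped, and the log2 difference of 0.12 ± 0.08 (adjusted p = 0.40) did not pass. In GL7+ cells Rpa3 had 84.4, 83.4 and 96.5 RPKM with GSK-J4, against 76.9, 70.5 and 65.8 RPKM with DMSO. Here the groups were apart, and the log2 difference was 0.31 ± 0.08 (adjusted p = 0.029), a call held in 20 of the 26 other settings. Rpa2 rose by 0.27 ± 0.08 (adjusted p = 0.033), and Rpa1, the large DNA-binding subunit, did not pass (0.17 ± 0.07, adjusted p = 0.13).

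Lig1 (gene ID 16881), the ligase that seals lagging strand fragments, had 81.1, 81.6 and 84.1 RPKM in CD138+ cells with GSK-J4, against 73.3, 75.1 and 72.1 RPKM in CD138+ cells with DMSO. In GL7+ cells it had 94.7, 95.4 and 99.6 RPKM with GSK-J4, against 86.4, 88.3 and 81.4 RPKM with DMSO. Lig1 showed no overlap in either fraction and small log2 differences, 0.16 ± 0.05 (adjusted p = 0.045) and 0.18 ± 0.05 (adjusted p = 0.030). Fen1, the nuclease that trims the flaps ahead of the ligase, rose in GL7+ cells (0.25 ± 0.08, adjusted p = 0.040), and in CD138+ cells its difference was 0.11 ± 0.08 (adjusted p = 0.37).

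Nucleotide supply held the member with the largest log2(RPKM + 1) difference in GL7+ cells, although by the ratio of mean RPKM Cdc6, 41.5% higher with GSK-J4, was level with Rrm2, 40.9% higher. Rrm2 (gene ID 20135), the small subunit of ribonucleotide reductase, which limits deoxynucleotide synthesis in S phase, had 249.3, 247 and 252 RPKM in CD138+ cells with GSK-J4, against 214, 203 and 216 RPKM in CD138+ cells with DMSO. In GL7+ cells it had 231, 238 and 248 RPKM with GSK-J4, against 171, 171 and 167 RPKM with DMSO. Rrm2 was far apart between treatments in both fractions, and its log2 differences were 0.24 ± 0.05 (adjusted p = 0.0054) and 0.49 ± 0.05 (adjusted p = 8.2e-05). The large subunit Rrm1 rose by 0.29 ± 0.04 (adjusted p = 7.7e-04) in GL7+ cells, and its difference was 0.08 ± 0.04 (adjusted p = 0.27) in CD138+ cells. Tyms, thymidylate synthase, and Tk1, thymidine kinase, passed the threshold in neither fraction (0.23 ± 0.17 and 0.17 ± 0.07 in GL7+ cells). Tyms did not overlap in GL7+ cells, at 23.6 to 26.1 RPKM with GSK-J4 and 20.8 to 20.9 RPKM with DMSO. Its error also covers the naive libraries, where Tyms had 1.08, 2.84 and 1.05 RPKM.

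Dut (gene ID 110074), the dUTPase that keeps uracil out of DNA, had 27.4, 25.3 and 25.2 RPKM in CD138+ cells with GSK-J4, against 28.1, 26.5 and 27.9 RPKM in CD138+ cells with DMSO. These groups overlapped, and the log2 difference was -0.08 ± 0.05 (adjusted p = 0.35). In GL7+ cells Dut had 45.8, 45.5 and 47.7 RPKM with GSK-J4, against 39.1, 39.2 and 36.1 RPKM with DMSO. Here no libraries overlapped, and Dut rose by 0.27 ± 0.05 (adjusted p = 0.0040).

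In chromatin assembly, Chaf1a (gene ID 27221), the large subunit of the CAF-1 chaperone that places histones behind the fork, had 22.9, 23.2 and 23.7 RPKM in CD138+ cells with GSK-J4, against 21.2, 21.2 and 19.9 RPKM in CD138+ cells with DMSO. In GL7+ cells it had 27.7, 27.3 and 29.3 RPKM with GSK-J4, against 23.3, 23.8 and 22.7 RPKM with DMSO. Chaf1a rose in both fractions, by 0.16 ± 0.05 (adjusted p = 0.043) and 0.26 ± 0.05 (adjusted p = 0.0033), with no overlap. Slbp, which binds the stem-loop of histone mRNAs, rose in GL7+ cells (0.33 ± 0.09, adjusted p = 0.034). Chaf1b, the middle subunit of CAF-1, passed in neither (0.14 ± 0.07 and 0.21 ± 0.07).

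**Figure D3:**
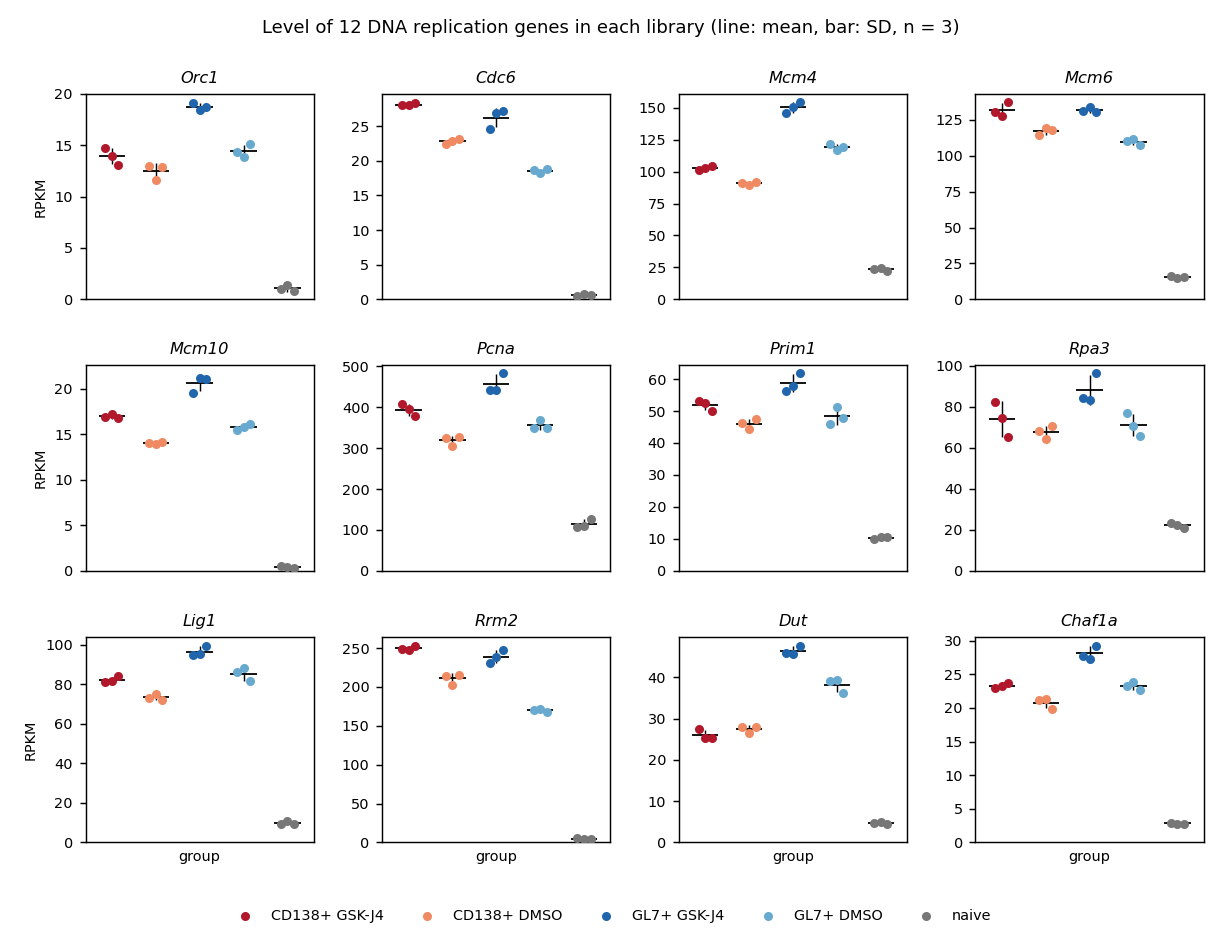
RPKM in every library (points), with the mean (line) and SD (bar), for the 12 members described library by library, with the groups from left to right CD138+ GSK-J4, CD138+ DMSO, GL7+ GSK-J4, GL7+ DMSO and naive. Cdc6 and Rrm2 stand highest in CD138+ cells with GSK-J4, most of the others stand highest in GL7+ cells with GSK-J4, and naive cells lie lowest for all 12.

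The plot of levels by library shows the spread behind these tests. For Rrm2 the 3 libraries of each cultured group lie close together against the distance between GSK-J4 and DMSO. For Rpa3 the 3 CD138+ libraries with GSK-J4 span 65.0 to 82.4 RPKM and overlap those with DMSO, which span 64.4 to 70.5 RPKM.

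Whether the fractions differed in their response was tested as the difference of their log2 differences, CD138+ minus GL7+. Of the 49 members 1 passed, Dut, at -0.36 ± 0.07 (adjusted p = 0.040), against 0.322% of all genes tested that were higher and 0.644% that were lower in this test. For the other 14 members that rose in GL7+ cells and were not called in CD138+ cells, the difference itself did not pass, so they are not shown to differ between the fractions. At an unadjusted p below 0.05, 11 members were lower and 0 higher in this test, again without the share of all genes. The call of Dut held in 11 of the 26 other settings and was lost in the rest, among them the fit with the mouse as a block, with adjusted p-values of 0.0034 to 0.34 over the settings. It was lost without any 1 of the cultured libraries except CD138+ GSK-J4 replicate 1. The number of members that passed was 4 without naive replicate 2, 2 without naive replicate 1, 5 with voom, and 8 both with library weights and in a fit of the compared groups alone. Voom, library weights and the compared groups alone also called more of all genes tested. They called 125, 268 and 116 genes higher and 305, 564 and 302 lower, against 35 and 70 in the main fit. The fit with the mouse as a block called fewer, 12 higher and 20 lower. Pole2 had a larger estimate than Dut with a wider error (-0.41 ± 0.11, adjusted p = 0.10), and Rpa2 (-0.31 ± 0.11, adjusted p = 0.21), Rfc4 (-0.31 ± 0.21, adjusted p = 0.58) and Orc2 (-0.30 ± 0.09, adjusted p = 0.14) followed. The median over the 49 members was -0.12, against -0.02 over all genes tested, and 46 of the 49 estimates lay below 0.

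The next comparison set CD138+ cells beside GL7+ cells. With GSK-J4, 33 of the 49 members were lower and 4 were higher in CD138+ cells, against 39% of all genes tested that were lower and 24% that were higher. With DMSO, 23 were lower and 7 were higher, against 36.9% and 21.8%. The median log2 difference of the members was -0.27 with GSK-J4 and -0.16 with DMSO, against -0.10 and -0.11 over all genes tested. The summed level of the 49 members was 2864 ± 29.98 RPKM in CD138+ cells against 3436 ± 104 in GL7+ cells with GSK-J4, and 2605 ± 21.9 against 2843 ± 42.3 RPKM with DMSO (SD, n = 3). Beside this, the B cell marker list was lower and the plasma cell marker list higher in CD138+ cells (summed 822 to 867 against 1308 to 1495 RPKM, and 3298 to 3468 against 829 to 932 RPKM, with GSK-J4).

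With DMSO the share of members that were lower in CD138+ cells, 46.9%, lay near the 36.9% of all genes tested. With GSK-J4 it was 67.3%, against 39%. The genes that were lower in CD138+ cells came from most steps. All 6 subunits of origin recognition were lower with GSK-J4 and 5 of them with DMSO, with Orc6 at -0.70 ± 0.07 (adjusted p = 8.6e-07) and -0.44 ± 0.07 (adjusted p = 1.1e-04). Mcm3 and Mcm4 were lower in CD138+ cells, at -0.57 ± 0.04 and -0.54 ± 0.04 on the log2 scale with GSK-J4. Rpa1, Rrm1, Tk1, Dut, Chaf1b and Pold1 were lower in both comparisons, Dut at -0.81 ± 0.05 (adjusted p = 7.0e-09) with GSK-J4 and -0.46 ± 0.05 (adjusted p = 3.4e-06) with DMSO. Pold1 was at 23.7 ± 0.80 RPKM in CD138+ cells and 39.2 ± 0.408 RPKM in GL7+ cells with GSK-J4, a log2 difference of -0.70 ± 0.08 (adjusted p = 4.8e-06).

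A few members went the other way. Cdt1, Cdc45, Gins4 and Fen1 were higher in CD138+ cells with GSK-J4 and with DMSO, and Cdc6, Pole2 and Rrm2 with DMSO. Fen1 was at 102 ± 5.96 RPKM in CD138+ cells against 80.7 ± 0.738 RPKM in GL7+ cells with GSK-J4, and at 94.2 ± 3.04 against 67.7 ± 2.69 RPKM with DMSO (adjusted p = 0.0014 and 8.8e-05). Pole2 was higher by 0.48 ± 0.08 (adjusted p = 8.6e-05) with DMSO, and its difference was 0.07 ± 0.08 (adjusted p = 0.43) with GSK-J4. Rrm2 was higher in CD138+ cells by 0.31 ± 0.05 (adjusted p = 7.9e-05) with DMSO, whereas its partner Rrm1 was lower, at -0.42 ± 0.04 (adjusted p = 7.8e-07). Gmnn, Pcna, Prim1 and Rpa3 with GSK-J4 and Mcm10 with DMSO were no longer called when the mouse entered the fit, at adjusted p = 0.055, 0.08, 0.073, 0.11 and 0.061. Over the 26 settings their adjusted p ranged from 5.3e-05 to 0.064, 4.9e-05 to 0.095, 0.0081 to 0.46, 0.0038 to 0.33 and 0.0084 to 0.25. The count higher with DMSO was 11 when the fit held these groups alone, and the count higher with GSK-J4 was 1 when libraries were thinned to the same depth.

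**Figure D4:**
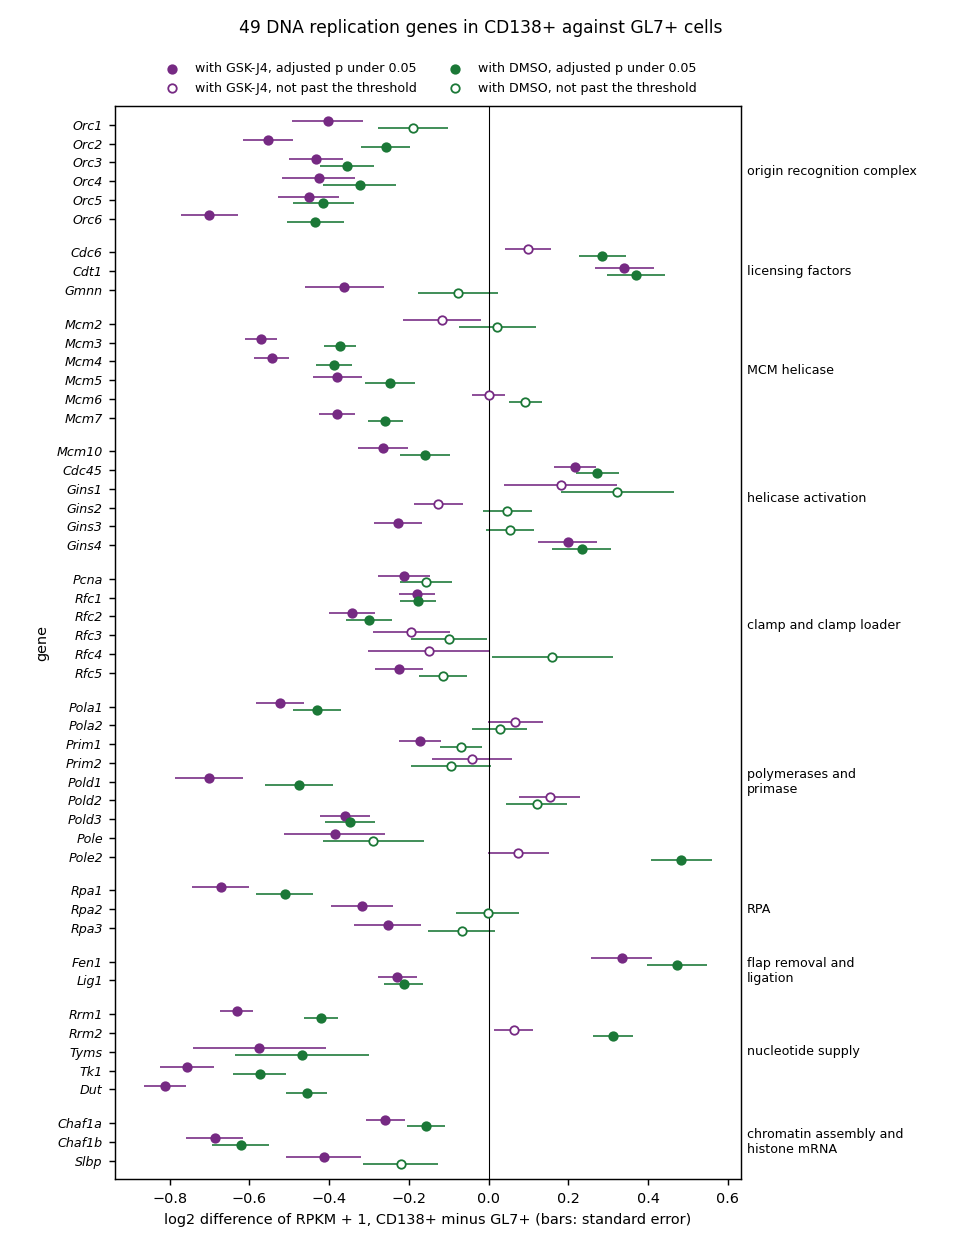
Log2 difference, CD138+ over GL7+, of the 49 members by role on the log2(RPKM + 1) scale, with GSK-J4 (purple) and with DMSO (green), where points are estimates, bars are standard errors and filled points passed the threshold. Most filled points lie below 0 (33 purple and 23 green), and Cdt1, Cdc45, Gins4 and Fen1 lie above 0 in both.

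In the plot of CD138+ against GL7+ differences the purple point lies at a lower value than the green one for 46 of the 49 members. This is the same quantity as the difference of the drug responses above and is no further result.

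Stimulated cells with DMSO were then set against naive cells, which sets the drug differences beside the step from resting to stimulated cells. In GL7+ cells 45 of the 49 members rose and 1 fell, against 41.3% of all genes tested that rose and 40.3% that fell. In CD138+ cells 44 rose and 4 fell, against 39.9% and 43.5%. The median log2 differences were 2.14 and 1.85, against 0.01 and -0.05 over all genes tested. Both comparisons share the naive libraries, so their values are given side by side and not as separate evidence.

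Rrm2, Cdc6 and Mcm10 differed most from naive cells of the 49 members, by the ratio of means. Rrm2 had 5.22, 4.52 and 4.53 RPKM in naive libraries, so that its mean was 35.7-fold higher in GL7+ cells and 44.3-fold higher in CD138+ cells with DMSO. Cdc6 had 0.505, 0.743 and 0.602 RPKM in naive libraries, and its mean was 30.1-fold and 37.0-fold higher. Mcm10 had 0.542, 0.472 and 0.302 RPKM in naive libraries, from 46, 4 and 12 reads, and its mean was 36.0-fold and 31.95-fold higher. For these 3 genes no cultured library came near the naive range. Orc1 had 1.00, 1.40 and 0.796 RPKM in naive libraries, whereas Orc3 had 15.3 ± 1.46 RPKM (SD, n = 3).

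Other members started from higher naive levels. Pcna had 107, 109 and 128 RPKM, Mcm4 had 23.9, 24.7 and 22.1 RPKM and Rpa3 had 23.5, 22.6 and 21.1 RPKM in naive libraries. Mcm6 had 15.9, 14.98 and 15.8 RPKM, Prim1 had 10.02, 10.7 and 10.6 RPKM and Lig1 had 9.43, 10.7 and 9.55 RPKM. Dut had 4.70, 4.82 and 4.38 RPKM and Chaf1a had 2.94, 2.77 and 2.78 RPKM. For all of these, every cultured library with DMSO lay above every naive library, and each rose in both fractions.

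The exceptions were origin, loader and polymerase subunits that naive cells already held. Cdt1 had 21.6, 19.7 and 22.4 RPKM in naive libraries and was lower in GL7+ cells with DMSO (-0.20 ± 0.07, adjusted p = 0.022) and higher in CD138+ cells (0.17 ± 0.07, adjusted p = 0.045). The GL7+ call of Cdt1 was lost after TMM scaling, after thinning, and without GL7+ DMSO replicate 1, naive replicate 1 or naive replicate 3, and its CD138+ call held in 7 of the 26 other settings. Pold1 had 41.2, 33.2 and 46.7 RPKM in naive libraries and was lower in CD138+ cells, at -0.64 ± 0.08 (adjusted p = 4.8e-06), while its GL7+ difference was -0.17 ± 0.08 (adjusted p = 0.083). Orc4, Orc3 and Rfc1 were also lower in CD138+ cells (-0.41 ± 0.09, -0.20 ± 0.07 and -0.16 ± 0.05; adjusted p = 7.1e-04, 0.013 and 0.0036). Orc5 was not called in CD138+ cells, at 14.3 ± 0.20 RPKM with DMSO and 13.7 ± 0.61 RPKM in naive libraries (SD, n = 3). TMM scaling moved the median of all genes in this comparison by 0.12 on the log2 scale and ended the calls of Orc3 and Rfc1. The GL7+ rise of Orc3 (0.16 ± 0.07, adjusted p = 0.044) held in 10 of the other settings (adjusted p 0.0018 to 0.21) and was lost when the mouse was added to the model (0.057).

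Markers of other cell types moved with the naive comparison. The myeloid list summed to 1.71 to 4.69 RPKM in the cultured libraries, against 65.0 to 112 in naive libraries, where Lyz2 reached 73.3 RPKM. The erythroid and platelet list summed to 1.15 to 9.84 RPKM in cultured libraries, against 206 to 231 in naive libraries, and the T cell list to 8.22 to 15.5 against 33.7 to 41.3 RPKM. The NK cell list summed to 0.13 to 0.56 against 5.22 to 5.81 RPKM. The dendritic cell list summed to 6.13 to 34.8 against 27.4 to 32.7 RPKM, but its genes differed: Flt3 reached 32.6 RPKM in cultured libraries and Itgax 0.122, against 4.56 to 7.66 RPKM for Flt3 and 13.7 to 14.9 RPKM for Itgax in naive libraries. The T cell list was mixed too. Cd3e was at 0 in all 12 cultured libraries and between 0.56 and 1.06 RPKM in naive ones. Cd28 went the other way, at 3.85 to 7.95 RPKM in CD138+ and 0.715 to 0.967 RPKM in GL7+ libraries, against 0.254 to 0.516 RPKM in naive ones. The part of these cells in the naive levels was not tested.

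**Figure D5:**
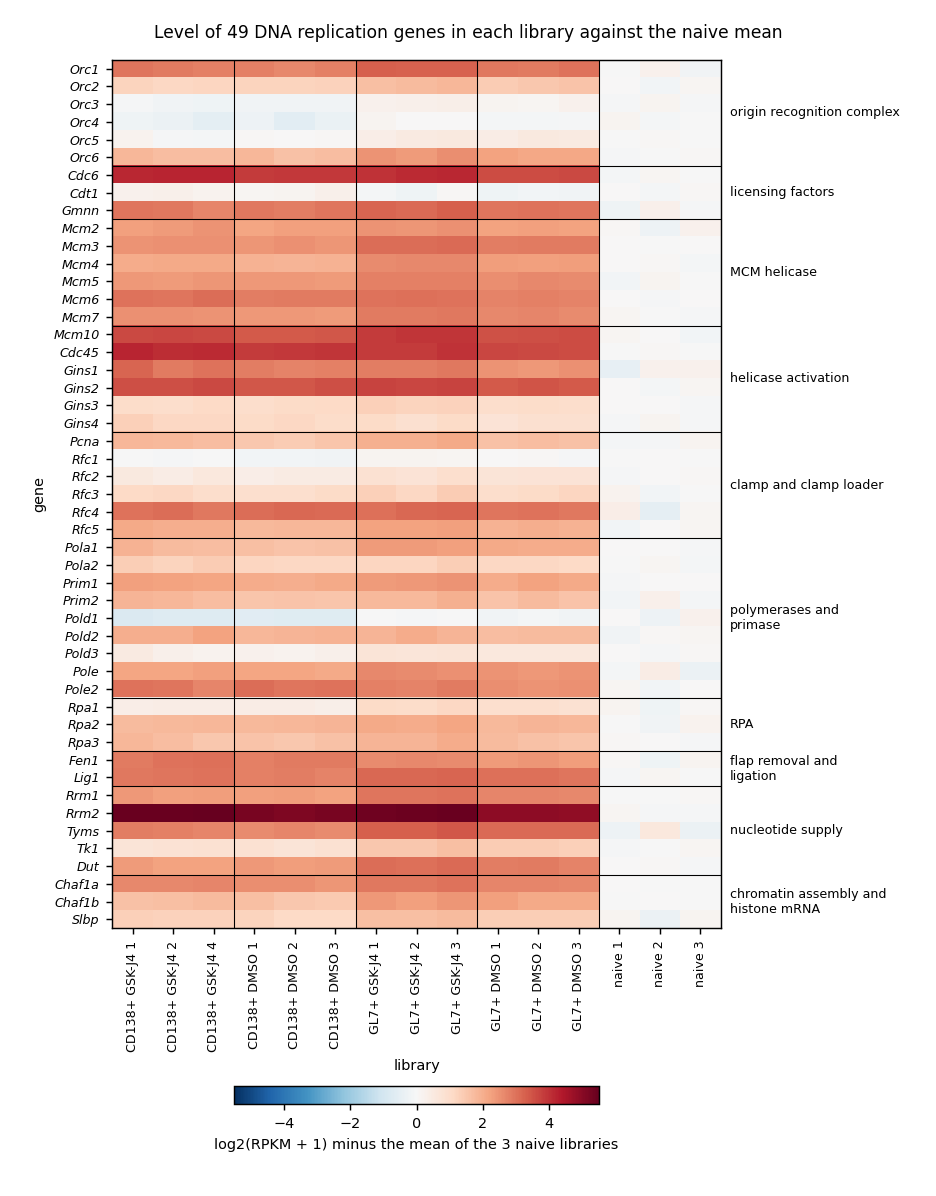
Level of the 49 members (down the page, by role) in the 15 libraries (across), as log2(RPKM + 1) minus the mean of the 3 naive libraries. All 12 cultured libraries stand well above naive for most members. Orc3, Orc4, Cdt1, Rfc1 and Pold1 stay near or below the naive level, and Orc5 stays near it in CD138+ cells.

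The heatmap of levels relative to naive shows how alike the cultured libraries were for these genes beside the step from naive cells. Summed over the 49 members, the level was 3.80-fold and 3.46-fold that of naive cells in CD138+ cells with GSK-J4 and with DMSO, and 4.56-fold and 3.77-fold in GL7+ cells with GSK-J4 and with DMSO. The naive sum was 753 ± 29.6 RPKM (SD, n = 3).

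The rest of the replication machinery was read from 7 further lists with 48 tested genes (origin firing, fork components, small polymerase subunits and primer removal, topoisomerases, histone chaperones, nucleotide supply, and licensing turnover with maintenance methylation). In CD138+ cells 4 of the 48 rose with GSK-J4 (Clspn, Pole3, Top1 and Dnmt1) and 1 fell (Top2b), with a median log2 difference of 0.00; of all genes tested 4.61% rose and 8.61% fell. In GL7+ cells 11 rose and none fell, with a median of 0.17, where 5.81% of all genes tested rose and 7.71% fell. Fork components made up 5 of the 11, out of 13 tested: Clspn, Tipin, Timeless, Mms22l and Chtf18. Clspn, the adaptor of the replication checkpoint, was at 21.0 ± 0.18 RPKM with GSK-J4 and 16.2 ± 0.74 with DMSO in CD138+ cells (adjusted p = 0.04), and at 24.8 ± 0.73 and 17.9 ± 1.17 RPKM in GL7+ cells (adjusted p = 0.013; SD, n = 3). Top1, which relieves the twist ahead of the fork and serves transcription too, was at 129 ± 2.64 RPKM with GSK-J4 and 94.0 ± 4.38 with DMSO in CD138+ cells, and at 71.3 ± 4.53 and 52.7 ± 0.29 RPKM in GL7+ cells (adjusted p = 1.5e-04 and 4.1e-04). Of 7 origin firing factors limma called none in either fraction, with 2 and 3 at an unadjusted p below 0.05 and 1 and 3 called by voom in CD138+ and GL7+ cells.

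Genes on either side of S phase were counted in the same way. Of 19 regulators of the G1 to S transition, 6 rose with GSK-J4 in CD138+ cells (median log2 difference 0.14), against 4.61% of all genes tested. In GL7+ cells 9 rose and 1, the inhibitor Cdkn1b, fell (median 0.25), against 5.81% and 7.71% of all genes tested. Ccne2, a cyclin that drives S phase entry, was at 12.4 ± 2.41 RPKM with GSK-J4 and 7.12 ± 0.98 with DMSO in CD138+ cells (adjusted p = 0.0022), and at 11.4 ± 0.90 and 7.11 ± 0.50 RPKM in GL7+ cells (adjusted p = 0.006; SD, n = 3). Not all that rose drive S phase entry. Cdkn1a, which encodes the CDK inhibitor p21, had the largest log2 difference of the 19 in CD138+ cells, at 18.8 ± 0.75 RPKM with GSK-J4 and 9.09 ± 0.52 with DMSO (log2 difference 0.98, adjusted p = 0.0033), and was at 12.6 ± 0.21 and 9.10 ± 0.97 RPKM in GL7+ cells (adjusted p = 0.14). E2f7, a repressor of the E2F family, was at 4.38 ± 0.10 RPKM with GSK-J4 and 3.32 ± 0.30 with DMSO in CD138+ cells (adjusted p = 0.018), and at 2.82 ± 0.14 and 2.03 ± 0.22 RPKM in GL7+ cells (adjusted p = 0.014; SD, n = 3). Of 20 genes of G2 and M phase, limma called none in CD138+ cells (median -0.02), with 3 at an unadjusted p below 0.05 and 2 called by voom. In GL7+ cells 1 of the 20, Nek2, rose (median 0.07), a share near the 5.81% of all genes tested, and voom called 5. Whether these lists differ from the 49 members was not tested. Markers of the sorted fractions moved with the drug as well. In CD138+ cells 6 of 7 B cell markers fell with GSK-J4 (summed 822 to 867 RPKM, against 1052 to 1112 with DMSO; median log2 difference -0.61) and 1 of 7 plasma cell markers, Ell2, rose (3298 to 3468 RPKM, against 2990 to 3212 with DMSO). In GL7+ cells 6 of 7 plasma cell markers rose (summed 829 to 932 RPKM, against 640 to 702 with DMSO) and 4 of 7 B cell markers fell (1308 to 1495 RPKM, against 1738 to 1831 with DMSO); their part in the levels of the members was not tested.

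The drug differences were last set beside the promoter words. The 19 members with an E2F-type word had a median log2 difference of 0.11 in CD138+ cells, where 4 of them rose, and of 0.21 in GL7+ cells, where 10 rose. The 22 members whose promoter held no such word had medians of 0.12 and 0.27, and 6 and 14 of them rose. Cdc6 and Mcm6 stand in the first group, and Mcm10, Pcna and Rrm2 in the second. The 8 members with no promoter entry had medians of 0.12 and 0.22.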

How the data were processed

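Messenger RNA was measured in 15 libraries of mouse B cells, and the table that the authors deposited holds RPKM of 21761 genes, per its header. Per the submitters' processing notes, TopHat2 aligned the reads and the build was mm9. The version, the counter and the use of strand were not given in the sources used here, so antisense and overlapping genes cannot be told apart. RPKM times gene length summed to 1000000 per library, which makes each value a share of the assigned reads. Low values were whole multiples of 1 read within 0.1 read in 100% of cases, which gave the depths, on average 9197829 reads.

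The test was limma 3.58.1 (R 4.3.3) on log2(RPKM + 1), run on the 10866 genes, all 49 members included, that reached 1 RPKM in 3 or more libraries. A single model of the 5 group means over the 15 libraries was used, with trended moderation of the variances. Adjustment was by Benjamini and Hochberg over all genes tested, with a threshold of 0.05. Log2 differences understate those of low genes, and SE is the standard error of the fit. The variance of a gene is shared by all 5 groups, so spread among naive libraries also widens the errors of the drug comparisons. RPKM was the only deposited unit, so the count test was voom on recovered reads. The fit was also run on simulated reads with no mouse effect and with changes larger than the drug differences called among the members. That run does not bear on the calls given here. The table's columns were matched to the labels by fraction, treatment and number. Figures were drawn with matplotlib 3.10.9.

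The labels tie replicate numbers to mice, which makes the cultures of 1 number paired, except for CD138+ GSK-J4 replicate 4, which had no mouse and was a level of its own in the block. Deviations from the group means correlated by 0.09 (median of 15 pairs of libraries from the same mouse) and by -0.03 between different mice (30 pairs).

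Members and lists were chosen with earlier results of these data known. Values in every library are given for the member of each role group with the smallest adjusted p in either drug comparison and for any member whose drug differences differed past the threshold. Rfc4 and Pold1 were added after their values were seen. Other settings were a pseudocount of 0.1, no filter, TMM, quantile normalization, the mouse block, fits of the compared groups alone, library weights, voom, thinning, and each library left out. Another 2, which left out naive replicate 2 together with thinning or with CD138+ GSK-J4 replicate 4, were added after the data were seen. Promoters came from RefSeq of GRCm38.p6, another build than that of the table, and were matched by gene.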

Additional observations from a re-analysis of the deposited data

Results flagged for a closer look

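Dut stood out because its drug responses in the fractions differed by a test of the difference itself. The CD138+ minus GL7+ difference was -0.355 ± 0.07 on the log2 scale (SE; adjusted p = 0.04, limma), from log2 differences of -0.08 in CD138+ cells and 0.27 in GL7+ cells. The adjusted p lay at or below 0.34 over the 26 other settings and passed the threshold in 11 of them. Dut encodes dUTPase, and its neighbours in nucleotide supply, Rrm1 and Tk1, had differences of -0.21 (adjusted p = 0.11) and -0.18 that did not pass.

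Pold1 and Rfc4 stood out because every CD138+ library with GSK-J4 lay below every CD138+ library with DMSO, while every GL7+ library with GSK-J4 lay above every GL7+ library with DMSO. For Pold1, a catalytic polymerase subunit, the difference of the log2 differences was -0.226 ± 0.12 (SE; adjusted p = 0.44, limma). For Rfc4, a subunit of the clamp loader, it was -0.310 ± 0.21 (SE; adjusted p = 0.58, limma). Neither passed, and 11 of the 49 members had an unadjusted p below 0.05 in this test, without the share of all genes beside it. Both errors also cover the naive libraries, which are outside this comparison. There Pold1 had 41.2, 33.2 and 46.7 RPKM and Rfc4 had 6.84, 3.24 and 5.53 RPKM.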

How the results depend on the processing

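No called log2 difference of the 26 GL7+, 11 CD138+ and 1 difference calls changed sign under the 26 other settings, and no setting called a member lower with GSK-J4 in either fraction. The first count follows only differences already past the threshold in the same libraries, so a sign change was unlikely from the start. Leaving out a library of a group outside the comparison also leaves its estimate unchanged. Calls were less stable in CD138+ cells, where 195 of the 286 recomputed calls passed the threshold, against 594 of 676 in GL7+ cells. The cause was not tested, beyond the lower read number that thinning gives by construction.

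Members that rose in CD138+ cells numbered 11, 7 after TMM scaling, 4 in the paired analysis with the mouse as a block, 0 with all libraries thinned to 1318002 reads, and 3 to 16 with single libraries left out. In GL7+ cells they numbered 26, 3 after that thinning and 17 to 35 with single libraries left out. With naive replicate 2 left out and the others thinned to 6175171 reads they numbered 10 and 30. Fewer of all genes were also called higher with TMM scaling or the mouse block in CD138+ cells. The same held for thinning to 1318002 reads in both fractions, as given above. The difference between fractions had 1 member (Dut), 0 without the filter, with the mouse as a block or thinned, 8 with the compared groups alone or with library weights, 5 with voom, 3 with naive replicate 2 and CD138+ GSK-J4 replicate 4 both left out, and 0 to 4 with single libraries left out. The compared groups alone, library weights and voom also called more of all genes tested, as given above.

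With DMSO, members higher in CD138+ than in GL7+ cells numbered 7, and 11 with the compared groups alone. With GSK-J4 they numbered 4, and 1 when thinned. Members lower in GL7+ than in naive cells numbered 1, 0 with TMM scaling or thinned, 2 with quantile normalization, library weights, voom or either added setting, and 0 to 2 with single libraries left out. Members lower in CD138+ than in naive cells numbered 4, and 2 with TMM scaling. The mouse block changed no count of calls by over 1.5 times other than those given for it here. Depth limited naive replicate 2 most, where Gins2 had 2 reads, and n = 3 per group limits every test.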
